A study of Homo sapiens with 12 samples.

Results

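The annexins examined here are ANXA1, ANXA2, ANXA3, ANXA4, ANXA5, ANXA6, ANXA7 and ANXA11. They were taken by gene symbol from the deposited table, which gave 8 of its 58735 genes. All 8 were among the 16046 genes that passed the filter on low counts. The RNA came from TAMs made by treating THP-1 cells, a human monocytic leukaemia line, with the phorbol ester PMA. A Transwell membrane separated these TAMs from cocultured AsPC-1 cells, a human pancreatic cancer line. There were 4 groups of 3 libraries: control, in which the AsPC-1 cells carried an empty vector; OE-MMP28, in which they overexpressed the metalloproteinase MMP28; and OE-MMP28 with a neutralizing antibody against either IL-8 or VEGFA, called anti-IL-8 and anti-VEGFA below. All 12 cultures therefore contained cancer cells, and the antibody groups differ from OE-MMP28 by the antibody. No group is named for a control antibody, so the presence of an antibody and the loss of its target cannot be told apart. MMP28 was raised in the cancer cells and not in the sequenced cells, and its own count was 0 in all 12 TAM libraries. The study examined ANXA2 in the cancer cells, as a binding partner of MMP28 that was raised when MMP28 was overexpressed. It reports that knockdown of ANXA2 there partly lowered JNK phosphorylation. Cocultured TAMs then migrated less, with less CD163 and more CD86. The libraries described here hold TAM RNA, in which ANXA2 was not manipulated.

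Annexins are cytosolic proteins that bind negatively charged phospholipids when calcium rises, through a conserved core of annexin repeats. They take part in membrane repair, vesicle traffic and the scaffolding of membrane and actin. In macrophages ANXA1 is best known as a glucocorticoid-linked restrainer of inflammation that acts through formyl peptide receptors, and ANXA2, with its partner S100A10, as a surface platform for plasminogen activation.

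The libraries held 15852346 to 18701195 counts, and 3 counts corresponded to 0.160 to 0.189 CPM (counts scaled to a common library size, with TMM between libraries). The annexins together took 0.226% to 0.258% of all counts. Their summed level was 2378 ± 156 CPM in control, 2498 ± 229 in OE-MMP28, 2473 ± 152 with anti-IL-8 and 2368 ± 216 in the anti-VEGFA group (SD, n = 3 each), differences smaller than the spread between replicates. Of the macrophage markers 9 of 10 were testable, the exception being CD68, with 0 to 5 counts per library. The 10 markers summed to 2055 to 2326 CPM in control and 2203 to 3509 in OE-MMP28. Their sum was 2902 to 3595 CPM with anti-IL-8 and 2799 to 2974 with anti-VEGFA. Much of that sum was CD14, the lipopolysaccharide co-receptor, with means of 751, 1308, 1577 and 1384 CPM in the same order. Against control, 3 of the 9 rose and 1 fell with anti-IL-8, where 20.7% of all genes had an adjusted p under 0.05. In OE-MMP28 1 rose and 0 fell, against 3.16% of all genes. In the anti-VEGFA group 1 rose and 0 fell, against 11%. There 3 of 9 were higher and the median log2 change was -0.17, opposite in sign to the sum. Epithelial markers summed to 7.65 to 15.6 CPM, 4 of 12 were testable, and EPCAM had 0 counts in every library. Mitochondrial transcripts took 6.92% to 17.8% of counts, the highest share being in anti-VEGFA replicate 2. OE-MMP28 replicate 3 was the highest library of its group for 6 of the 8 annexins and for 38.7% of all genes tested. The part of these differences in the annexin values was not tested.

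On the deposited FPKM scale, which divides by gene length, the annexins covered a wide range. ANXA5, which binds exposed phosphatidylserine, was the most abundant at 341 ± 36.2 FPKM (SD, n = 12 libraries) and ranked 99 among all genes. ANXA1 followed at 108 ± 22.6 and ANXA11, a partner of the calcium sensors S100A6 and PDCD6, at 51.1 ± 7.74. ANXA2 stood at 33.4 ± 5.35, ANXA7, the annexin once named synexin, at 16.1 ± 1.09, and ANXA6, the member with a doubled repeat core, at 11.5 ± 1.39. ANXA4 reached 3.68 ± 0.372 and ANXA3 0.125 ± 0.0615, the latter resting on 1 to 19 reads per library. This order held in each of the 12 libraries. Across libraries, only the neighbours ANXA11 and ANXA2 had overlapping ranges, of 38.1 to 64.0 and 26.4 to 43.9 FPKM.

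**Figure D1:**
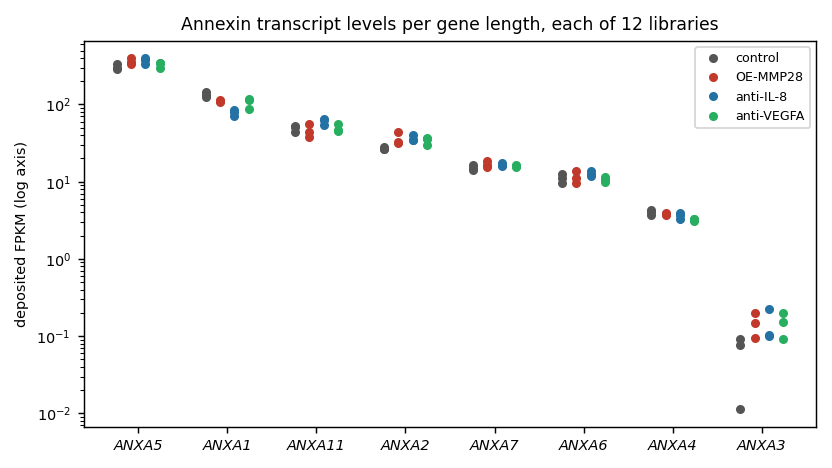
Deposited FPKM (log axis) of the 8 annexin genes in each of 12 libraries, coloured by group, ordered by mean. ANXA5 lies at 287 to 397 FPKM and ANXA3 at 0.0113 to 0.225, and only ANXA11 and ANXA2 overlap among neighbours.

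The place of ANXA2 in this order depends on the length used. The deposited length of ANXA2 is 8824 bases, the union of exons over 38 annotated transcripts, whereas its transcript with the longest coding stretch has 1444 bases. Rescaled to transcripts chosen in that way, ANXA2 rose to 204 ± 32.7, beside 223 ± 46.6 for ANXA1 and 62.4 ± 9.46 for ANXA11 (SD, n = 12). ANXA6 also moved above ANXA7, at 24.1 ± 2.92 against 21.2 ± 1.43. ANXA5 stayed first and ANXA3 last on both scales. Comparisons of 1 gene between groups do not depend on the length.

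The design asks what OE-MMP28 coculture does to TAMs and what each antibody changes on top of it. Every test below is the quasi-likelihood test of edgeR, its p-values adjusted by the Benjamini-Hochberg method over all 16046 genes, with a threshold of 0.05. Nothing in the labels says that replicates are separate cultures, so the p-values measure the spread between these libraries. In bulk RNA, fewer cells of a type and less RNA per cell cannot be told apart. The comparisons with control share the control libraries, and those with OE-MMP28 share the OE-MMP28 libraries.

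Between OE-MMP28 and control, 0 of 8 annexins passed the adjusted threshold, against 3.16% of all genes, and 2 of 8, ANXA2 and ANXA3, had an unadjusted p under 0.05, against 14.5%. The 3 OE-MMP28 libraries lay wholly apart from the control libraries for 4 of 8 annexins, against 21.3% of all genes: ANXA1 was below control, and ANXA2, ANXA3 and ANXA5 were above. ANXA3 entered the test only through the groups in which it was higher than in control, and without it these counts were 1 of 7 and 3 of 7. When anti-IL-8 was set against OE-MMP28, no gene in the table passed (0%), while 29.3% had an unadjusted p under 0.05, among them ANXA1 and ANXA11. Only ANXA1 of the 8 had libraries wholly apart there, against 29% of all genes. Between anti-VEGFA and OE-MMP28, 0 of 8 passed, against 0.343%, and 0 had an unadjusted p under 0.05, against 18.8%. Only ANXA4 had libraries wholly apart, against 18.1%.

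Against control, the anti-IL-8 group had 2 of 8 annexins past the adjusted threshold, against 20.7% of all genes: ANXA1 fell and ANXA2 rose. These 2 were also those with an unadjusted p under 0.05, against 35.9%. Libraries lay wholly apart for 4 of 8, against 47.8% of all genes. With anti-VEGFA, 0 of 8 passed against control, where 11% of genes did, and 4 of 8 had an unadjusted p under 0.05, against 27%, with 4 of 8 wholly apart, against 34.3%. Without ANXA3, the libraries of 3 of 7 lay wholly apart from control with either antibody, and 3 of 7 had an unadjusted p under 0.05 with anti-VEGFA. Between the antibody groups 0 of 8 passed, against 0.199%, and 1 of 8, ANXA1, had an unadjusted p under 0.05, against 15%, with 2 of 8 wholly apart, against 20.9%. In the test of any difference among the 4 groups, only ANXA1 passed (F = 11.5, adjusted p = 0.0061), against 17.2% of all genes. The adjusted count between anti-IL-8 and control and its count of separate libraries were close to the shares over all genes.

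**Figure D2:**
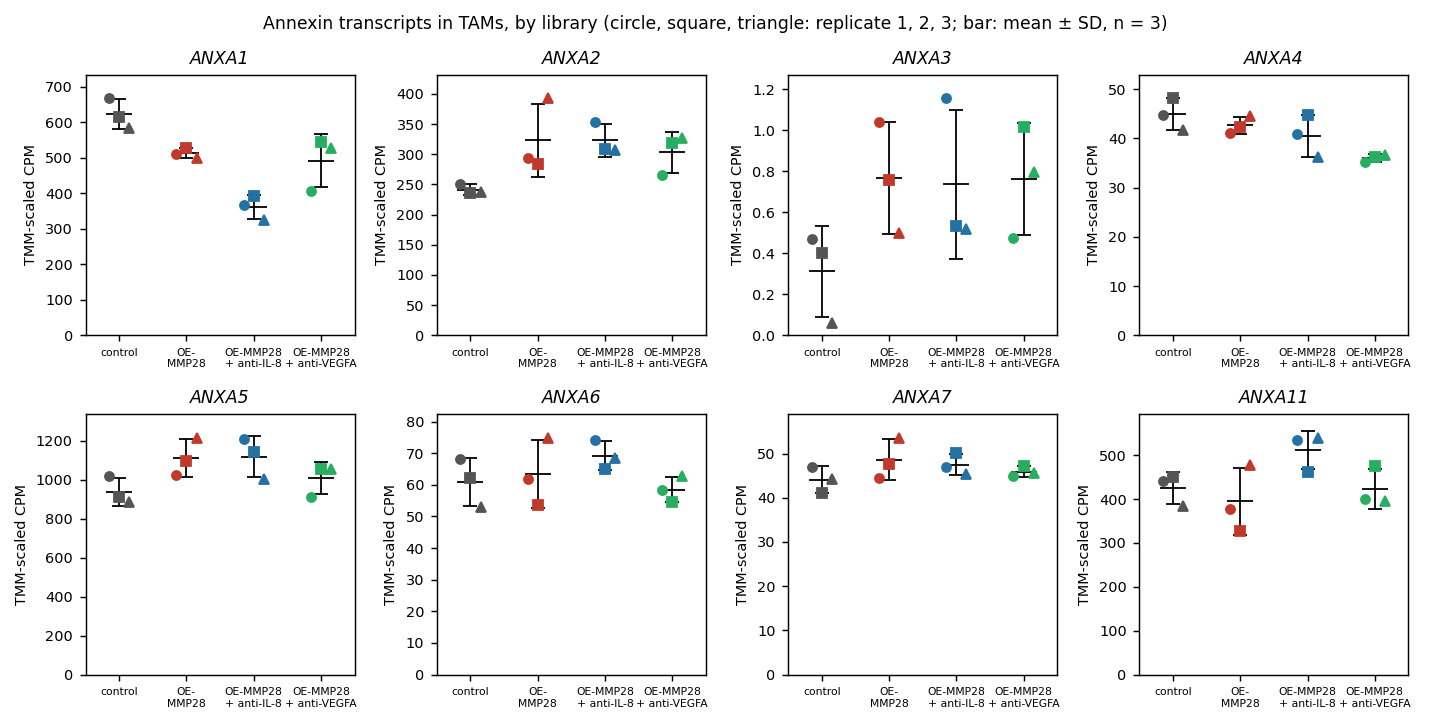
TMM-scaled CPM of each annexin (linear axes from 0) in the 4 groups; each symbol is 1 library and the bar is the mean ± SD (n = 3). ANXA1 is lowest with anti-IL-8, at 324 to 393 CPM against 584 to 668 in control, and ANXA2 in all 9 libraries with OE-MMP28 cells lies above the 3 control libraries. How many of all genes separate in this way was not counted.

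The median log2 change of the 8 annexins was 0.10 between OE-MMP28 and control, beside 0.02 for all genes. For anti-IL-8 against OE-MMP28 the medians were -0.02 and -0.02, and between anti-VEGFA and OE-MMP28 -0.09 and 0.00. Against control they were 0.22 beside -0.02 with anti-IL-8, and 0.03 beside 0.00 with anti-VEGFA. Between anti-VEGFA and anti-IL-8 they were -0.12 beside 0.02. Without ANXA3 the medians against control were 0.06 in OE-MMP28, 0.18 with anti-IL-8 and -0.01 in the anti-VEGFA group, the last of which turned sign. Regardless of sign and with ANXA3 included, the median size of change between OE-MMP28 and control was 0.19 on the log2 scale for the annexins. It was also 0.19 for all genes. It was 0.07 for the annexins beside 0.30 for all genes between anti-IL-8 and OE-MMP28, and 0.10 beside 0.23 between anti-VEGFA and OE-MMP28. Against control it was 0.26 beside 0.34 with anti-IL-8 and 0.21 beside 0.26 with anti-VEGFA, and between the antibody groups 0.16 beside 0.21. When ANXA3 was left out, the annexin median size between OE-MMP28 and control was 0.14, below the 0.19 of all genes. Its counterpart against control was 0.10 in the anti-VEGFA group and 0.25 in the anti-IL-8 group.

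ANXA1 was lower in every group with OE-MMP28 cancer cells than in control, and lowest with anti-IL-8. It measured 668, 616 and 584 CPM in control, and 511, 528 and 499 CPM in OE-MMP28. With anti-IL-8 it measured 368, 393 and 324 CPM, and with anti-VEGFA 406, 544 and 528 CPM. The control libraries were all above the other 9, the anti-IL-8 libraries were all below the other 9, and OE-MMP28 and anti-VEGFA overlapped.

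Against control, ANXA1 fell by 0.78 on the log2 scale with anti-IL-8 (SE 0.13, adjusted p = 9.3e-04). It passed the threshold in each of the 12 fits that left out 1 library. Between OE-MMP28 and control its log2 change was -0.28 (SE 0.13, unadjusted p = 0.050, adjusted p = 0.34), and between anti-VEGFA and control -0.34 (SE 0.13, adjusted p = 0.11). Neither passed.

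Between anti-IL-8 and OE-MMP28 the log2 change of ANXA1 was -0.50 (SE 0.13, 95% interval -0.78 to -0.22, adjusted p = 0.063). That adjusted p is the smallest of the comparison and was shared by 604 genes. ANXA1 passed with DESeq2 (adjusted p = 0.011), without the filter on low counts (0.024), and after either OE-MMP28 replicate 3 (0.018) or anti-VEGFA replicate 2 (0.048) was left out. In the same order, 14.1%, 4.18%, 26.1% and 6.72% of all genes passed in these fits, against 0% in the main fit. Between anti-VEGFA and OE-MMP28 the change of ANXA1 was -0.06 (95% interval -0.34 to 0.22). Set directly against each other, anti-VEGFA was above anti-IL-8 by 0.45 (SE 0.13, adjusted p = 0.15), which did not pass.

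ANXA2 was higher in every group with OE-MMP28 cancer cells than in control. It measured 251, 236 and 237 CPM in control, and 293, 283 and 393 CPM in OE-MMP28. With anti-IL-8 it measured 354, 309 and 306 CPM, and with anti-VEGFA 265, 318 and 327 CPM. The control libraries were all below the other 9, whose 3 groups overlapped, and OE-MMP28 replicate 3 was the highest. As for ANXA1, how many of all genes separate from control in this way was not counted.

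Between OE-MMP28 and control the log2 change of ANXA2 was 0.42 (SE 0.14, 95% interval 0.13 to 0.71, unadjusted p = 0.0075, adjusted p = 0.13). Without OE-MMP28 replicate 3 it was 0.26 (adjusted p = 0.38). With anti-IL-8 it rose by 0.42 against control (SE 0.14, adjusted p = 0.041). That call was lost with library totals in place of TMM (0.34, adjusted p = 0.063), and it was kept in 5 of the 12 fits that left out 1 library. It was lost without any one control library (adjusted p = 0.080, 0.12 and 0.12), without OE-MMP28 replicate 1 (0.053) and without any one anti-IL-8 library (0.14, 0.058 and 0.081). With anti-VEGFA the change against control was 0.33 (SE 0.14, adjusted p = 0.14).

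Neither antibody moved ANXA2 detectably from its OE-MMP28 level. Between anti-IL-8 and OE-MMP28 its log2 change was 0.00015 (95% interval -0.29 to 0.29), and between anti-VEGFA and OE-MMP28 -0.09 (95% interval -0.38 to 0.20). Between anti-VEGFA and anti-IL-8 it was -0.09 (SE 0.14). In the test over the 4 groups, ANXA2 had an adjusted p of 0.089. It passed with DESeq2 (0.044), without OE-MMP28 replicate 2 (0.047) and without OE-MMP28 replicate 3 (0.035). In the same order, 26%, 20.5% and 32.4% of all genes passed in these fits, against 17.2% in the main fit.

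**Figure D3:**
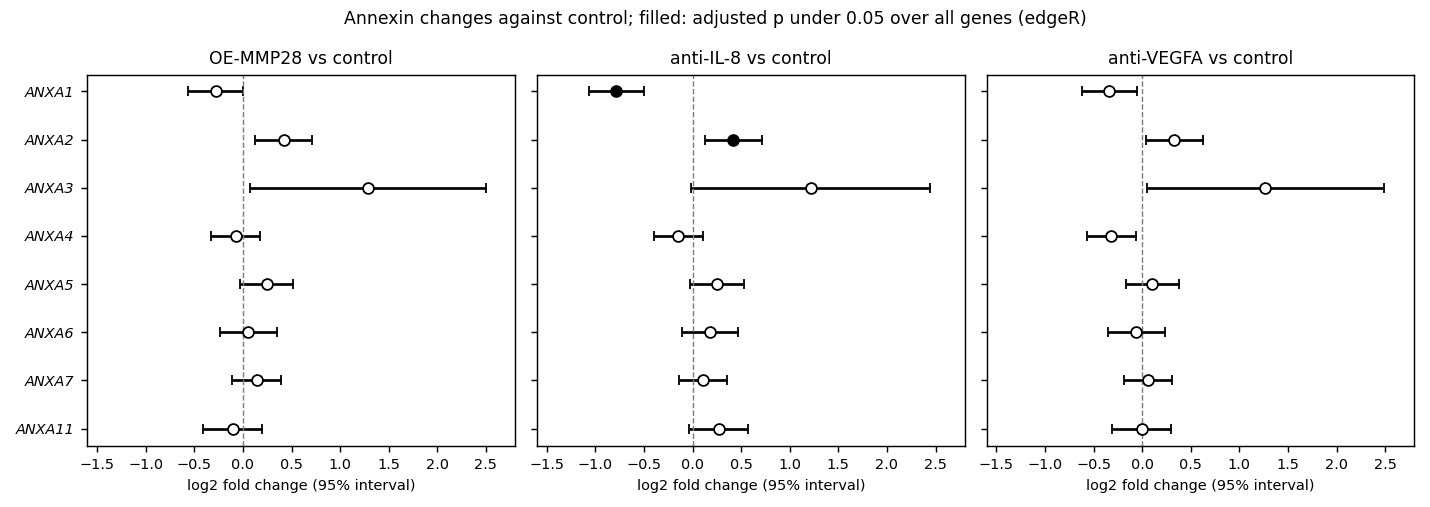
Log2 fold change against control with its 95% interval for each annexin; filled points passed an adjusted p of 0.05 over all genes. Only ANXA1 (-0.78) and ANXA2 (0.42) with anti-IL-8 are filled, and the 3 panels share the control libraries.

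Because ANXA1 and ANXA2 lay on opposite sides of control, their reads were also set against each other within a library, where scaling between libraries cancels. This ratio was chosen after the values were seen and is given without a test. There were 2.58 ± 0.101 ANXA1 reads per ANXA2 read in control, 1.63 ± 0.313 in OE-MMP28, 1.12 ± 0.129 with anti-IL-8 and 1.62 ± 0.0879 in the anti-VEGFA group (SD, n = 3 each). The lowest control ratio was 2.47 and the highest among the other 9 libraries was 1.86. The range was 1.04 to 1.27 with anti-IL-8 and 1.27 to 1.86 in OE-MMP28, so the OE-MMP28 library lowest in this ratio reached the anti-IL-8 values.

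**Figure D4:**
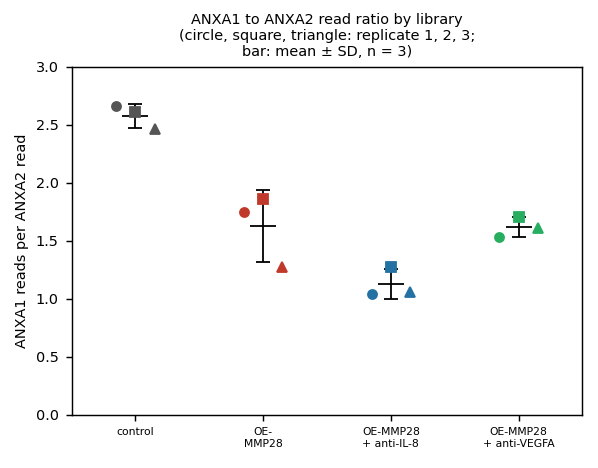
ANXA1 reads per ANXA2 read in each library (linear axis from 0), with the mean ± SD (n = 3) per group. Control lies at 2.47 to 2.66 and anti-IL-8 at 1.04 to 1.27.

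The promoters of ANXA1 and ANXA2 are shown as a description of the genes on opposite sides of control. Whether their letters bear on the levels was not tested. Both stretches are the 250 bases before the RefSeq transcription start on GRCh38.p14, 5′ to 3′ on the gene's strand. That of ANXA1 is chr9:73151615-73151864 on the plus strand and that of ANXA2 is chr15:60397987-60398236 on the minus strand. Capitals mark matches to the motifs searched on both strands: the TATA box, written TATAAA, the GC box, written GGGCGG, the CCAAT box, the AP-1 motif, written TGAGTCA, and the interferon-stimulated response element (ISRE).
ANXA1: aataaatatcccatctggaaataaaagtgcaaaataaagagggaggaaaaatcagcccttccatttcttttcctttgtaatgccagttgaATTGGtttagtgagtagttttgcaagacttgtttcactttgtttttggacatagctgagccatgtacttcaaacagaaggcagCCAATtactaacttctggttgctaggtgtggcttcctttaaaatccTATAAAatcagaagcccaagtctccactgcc
ANXA2: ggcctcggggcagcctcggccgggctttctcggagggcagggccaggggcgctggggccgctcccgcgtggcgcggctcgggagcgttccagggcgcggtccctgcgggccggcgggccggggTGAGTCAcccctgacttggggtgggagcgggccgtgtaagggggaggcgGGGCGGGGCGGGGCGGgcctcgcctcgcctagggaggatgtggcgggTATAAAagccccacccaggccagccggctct
Both hold TATAAA, which begins 31 bases before the start and is found in 10.7% of 35116 promoters of the same length. The ANXA1 stretch is 38.4% G or C and holds CCAAT 77 bases and its reverse complement 160 bases before the start, a motif found in 32% of promoters. The ANXA2 stretch is 78% G or C and holds 3 GC boxes, which overlap each other by 1 base and occur in 42.6% of promoters. It also holds TGAGTCA, 127 bases before the start, which 4.2% of promoters have. The ISRE, found in 3.02% of promoters, had 0 matches in both stretches. These are matches of letters, and binding at them was not measured here.

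ANXA2 reads could be shared with a near-identical copy. ANXA2P2, a processed pseudogene on chromosome 9, is 98.43% identical to ANXA2 over 1020 aligned bases, and 59.22% of its 50-base windows occur exactly in ANXA2. Conversely, over the 38 annotated ANXA2 transcripts pooled, 575 of 9726 windows (5.91%) occur in another gene. The exact matches of ANXA2P2 lie within the 1444-base ANXA2 transcript with the longest coding stretch. A larger part of that transcript is therefore shared than the pooled value gives. Reads counted to ANXA2P2 were 4.13% to 6.26% of those counted to ANXA2. Its log2 change between OE-MMP28 and control was 0.18 (adjusted p = 0.66), and between anti-IL-8 and control 0.30 (adjusted p = 0.18). For ANXA1, ANXA5 and ANXA6 no window was shared with another gene. ANXA2, ANXA4 and ANXA7 overlap genes on the opposite strand, and whether the counting used strand is not given in the sources used here.

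ANXA5, used in the laboratory as a probe for dying cells, followed the direction of ANXA2 with smaller differences. It measured 1019, 910 and 886 CPM in control, 1023, 1094 and 1217 in OE-MMP28, 1208, 1145 and 1003 in the anti-IL-8 group, and 913, 1058 and 1053 with anti-VEGFA. The OE-MMP28 libraries were above control by a narrow gap, 1023 against 1019 CPM, and the antibody groups overlapped control. The log2 change was 0.24 between OE-MMP28 and control (SE 0.13, adjusted p = 0.42) and 0.25 between anti-IL-8 and control (SE 0.13, adjusted p = 0.17). Between anti-VEGFA and control it was 0.10 (adjusted p = 0.65).

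ANXA11 differed most between anti-IL-8 and OE-MMP28. It measured 441, 451 and 383 CPM in control, 378, 328 and 478 in OE-MMP28, 534, 462 and 540 in the anti-IL-8 group, and 400, 475 and 394 with anti-VEGFA. The anti-IL-8 libraries were all above control and, except for OE-MMP28 replicate 3, above OE-MMP28. The log2 change between anti-IL-8 and OE-MMP28 was 0.38 (SE 0.15, unadjusted p = 0.019, adjusted p = 0.11). It passed with DESeq2 (0.38, adjusted p = 0.049) and without OE-MMP28 replicate 3 (0.55, adjusted p = 0.011). In these 2 fits 14.1% and 26.1% of all genes passed, against 0% in the main fit. Against control the log2 change of ANXA11 was 0.27 with anti-IL-8 (adjusted p = 0.19), -0.11 in OE-MMP28 (adjusted p = 0.80) and -0.01 with anti-VEGFA (adjusted p = 0.99).

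ANXA4, a regulator of epithelial secretion and membrane curvature, was lowest with anti-VEGFA. It measured 44.8, 48.2 and 41.7 CPM in control, 41.1, 42.3 and 44.6 in OE-MMP28, 40.9, 44.7 and 36.2 in the anti-IL-8 group, and 35.1, 36.1 and 36.7 with anti-VEGFA. The anti-VEGFA libraries were below all control and OE-MMP28 libraries and overlapped anti-IL-8 replicate 3. The log2 change was -0.32 against control (SE 0.12, unadjusted p = 0.016, adjusted p = 0.094) and -0.25 against OE-MMP28 (SE 0.12, adjusted p = 0.28). Neither passed.

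ANXA6, which acts in cholesterol and endosome traffic, showed group means of 61.0 ± 7.64 CPM in control, 63.4 ± 10.8 in OE-MMP28, 69.2 ± 4.59 with anti-IL-8 and 58.5 ± 4.06 in the anti-VEGFA group (SD, n = 3). The anti-VEGFA libraries, at 54.5 to 62.6 CPM, were all below those with anti-IL-8, at 64.9 to 74.0 CPM, with a log2 change of -0.24 (SE 0.14, adjusted p = 0.41). ANXA7 varied least, with means of 44.1 ± 3.00, 48.6 ± 4.65, 47.5 ± 2.41 and 45.9 ± 1.15 CPM in the same order. Its log2 changes lay between -0.08 and 0.14 over the 6 comparisons, and its groups overlapped in each.

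ANXA3 was scarce, and its differences rest on few reads. It had 8, 7 and 1 counts in control, 19, 13 and 8 in OE-MMP28, 18, 9 and 8 in the anti-IL-8 group, and 8, 16 and 15 with anti-VEGFA. Only 5 of 12 libraries had at least 10 counts, and none of these was a control library, so the gene entered the test through the groups in which it was higher. The groups did not overlap with control on the CPM scale, but in reads they met it. Control replicate 1 had 8 counts, as did the lowest library of each other group. The narrowest gap was 0.471 CPM in control replicate 1 against 0.475 in anti-VEGFA replicate 1, which came from the scaling of the libraries. The log2 change between OE-MMP28 and control was 1.29 (SE 0.58, adjusted p = 0.31), and without control replicate 3, the library with 1 count, it was 0.81. Against control it was 1.21 with anti-IL-8 (adjusted p = 0.15) and 1.27 with anti-VEGFA (adjusted p = 0.17). Without that library these log2 changes were 0.74 and 0.79.

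**Figure D5:**
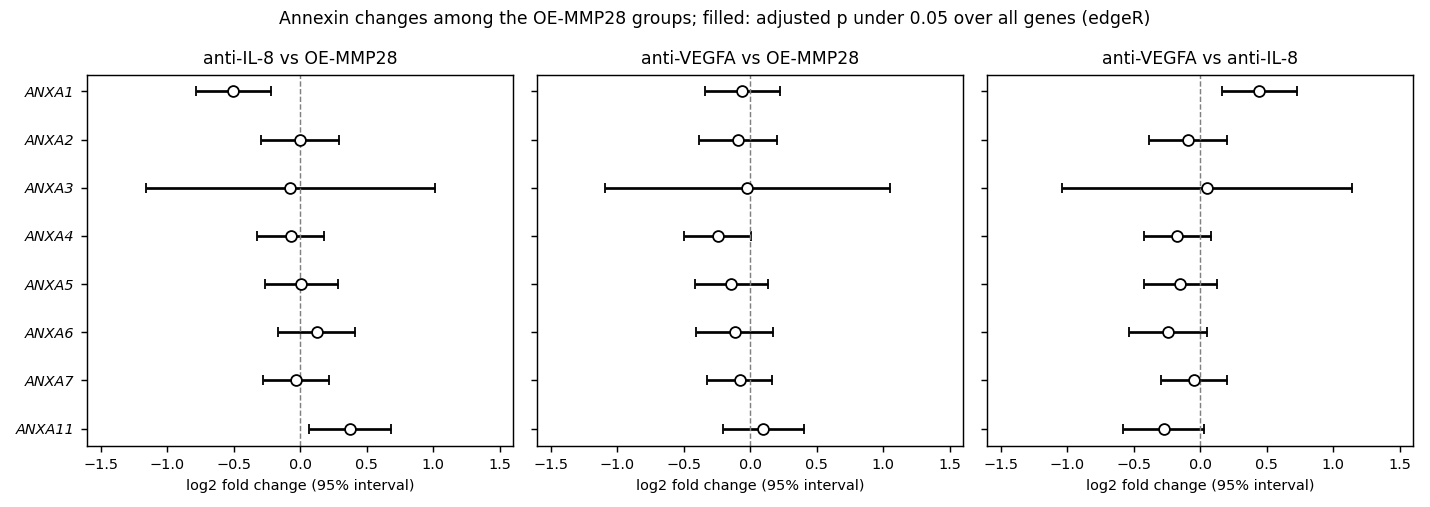
Log2 fold change with its 95% interval for each annexin between the groups that share OE-MMP28 cancer cells; filled points would have passed an adjusted p of 0.05, and none is filled. ANXA1 lies at -0.50 and ANXA11 at 0.38 between anti-IL-8 and OE-MMP28, and ANXA2 at 0.00.

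Across the 12 libraries, which share group differences and scaling, ANXA2 and ANXA5 varied together most among the 28 annexin pairs (Pearson r = 0.87 on log2 CPM, or 0.81 after group means were removed). ANXA5 and ANXA7 followed (0.81 and 0.73), and ANXA2 and ANXA7 (0.74 and 0.63). ANXA1 and ANXA2 had r = -0.47 over the libraries and 0.38 within groups, so the negative sign came from the differences between groups. Of 13063 protein-coding genes, those most like ANXA2 were PSMB1, a proteasome subunit (0.956, or 0.932 within groups), NDUFB9, a subunit of respiratory complex I (0.952 and 0.962), and ATP6V0E1, a subunit of the vacuolar proton pump (0.942 and 0.949). The next were the apoptosis regulator BID (0.936 and 0.887) and the glutathione enzyme MGST3 (0.934 and 0.901). These values are descriptions over 12 points.

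The partners of annexins were read from the same fit. Of 11 tested calcium-binding partners, 0 passed in any of the 6 comparisons, in which 0% to 20.7% of all genes passed, the highest share being between anti-IL-8 and control. S100A10, which forms a complex with ANXA2, measured 94.5, 79.7 and 82.8 CPM in control and 99.9, 93.5 and 140 CPM in OE-MMP28, overlapping, with a log2 change of 0.38 (adjusted p = 0.42). S100A11, a partner of ANXA1, measured 799, 789 and 785 CPM in control and 784, 718 and 1314 CPM in OE-MMP28, with a change of 0.25 (adjusted p = 0.69). OE-MMP28 replicate 3 was the highest library of its group for both. Formyl peptide receptors, through which extracellular ANXA1 acts, were near absent: FPR1 had 0 to 9 counts, FPR2 1 to 5 and FPR3 0 to 4, and none passed the filter. Of the other 6 genes on that list, the enzymes of arachidonate release and conversion, 0 passed between OE-MMP28 and control, against 3.16% of all genes.

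Plasminogen activation is the surface process to which ANXA2 and S100A10 belong, and 1 of its 9 tested genes reported here passed between OE-MMP28 and control, against 3.16% of all genes. SERPINB2, an inhibitor of plasminogen activators, fell by 1.20 on the log2 scale (edgeR, adjusted p = 0.0030). The urokinase gene PLAU changed by -0.42 (adjusted p = 0.30). Its receptor PLAUR changed by 0.39 (adjusted p = 0.19) and, with anti-IL-8, rose against control by 0.61 (adjusted p = 0.0087). The median log2 change of the 9 genes was -0.09, beside 0.02 for all genes. Between anti-IL-8 and control 1 of the 9 rose and 1 fell, against 20.7% of all genes, and between anti-VEGFA and control 0 rose and 2 fell, against 11%.

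Of 18 genes of membrane repair, in which annexins form a cap over the wound, 1 passed between OE-MMP28 and control, against 3.16% of all genes: MYOF, a ferlin of membrane fusion, fell by 0.62 (adjusted p = 0.020), and the list's median was 0.15. With anti-IL-8, 4 of the 18 rose and 5 fell against control, where 20.7% of all genes passed, and with anti-VEGFA 1 rose and 1 fell, where 11% passed. Of 17 genes of phosphatidylserine exposure and recognition, the lipid that ANXA5 binds, 0 rose and 2 fell between OE-MMP28 and control, against 3.16%. Against control, 2 of the 17 rose and 6 fell with anti-IL-8 (20.7% of all genes), and 3 rose and 3 fell in the anti-VEGFA group (11%). PLSCR1, a scramblase and interferon-induced gene, measured 236, 277 and 201 CPM in control and 66.9, 62.5 and 53.7 CPM in OE-MMP28, and fell by 1.96 in OE-MMP28 (adjusted p = 8.1e-08). AXL, a receptor for phosphatidylserine bridged by GAS6, measured 45.7, 46.3 and 39.3 CPM in control and 10.6, 9.75 and 9.10 CPM in OE-MMP28, and fell by 2.15 (adjusted p = 3.3e-07). The OE-MMP28 and control libraries did not overlap in either gene, as for 21.3% of all genes. No gene of these lists passed between either antibody group and OE-MMP28. Of the 4 tested genes among the other annexins, pseudogenes and the receptor gene ANXA2R, 0 passed between OE-MMP28 and control, against 3.16%.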

How the data were processed

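RNA from 12 TAM libraries was sequenced by the authors after library preparation with an NEBNext Ultra kit. The submitters' processing notes name HISAT2 2.0.5 and featureCounts 1.5.0-p3. The deposited counts are whole reads per gene for 58735 GENCODE 29 genes on GRCh38, and the authors also deposited FPKM values. Samples were grouped by their labels.

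Counts were analysed in R 4.3.3 with edgeR 4.0.16: filterByExpr by group (16046 genes kept), TMM, 1 quasi-likelihood fit over the 4 groups, Benjamini-Hochberg adjustment over all genes, threshold 0.05. Log2 fold changes are edgeR's; log2 CPM for correlations used a prior count of 2. The SE is the log2 fold change divided by the square root of F. The paper's limma test with an unadjusted threshold was replaced by this fit because the values are counts. Alternatives were DESeq2 1.42.0, voom in limma 3.58.1, other scalings and filters, a fit of the compared groups only, a replicate block, an unadjusted threshold and each library left out. The length of the longest-coding transcript was tried after the values had been seen. Scripts were tested on simulated data.

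Members and gene lists (partners, formyl peptide receptors and arachidonate enzymes, plasminogen activation, membrane repair, phosphatidylserine, other annexins, macrophage and epithelial markers) were chosen with earlier results of these data known. A member of the plasminogen activation list is not reported here, and the list's count and median leave it out. Genes named were all 8 annexins, ANXA2P2, S100A10, S100A11, FPR1, FPR2, FPR3, PLAU and PLAUR, up to 3 list genes per comparison past the adjusted threshold against OE-MMP28 or between OE-MMP28 and control, and the 5 genes most like ANXA2. Of the markers, CD14, CD68 and EPCAM are named as well. ALOX5AP, PLA2G4A, PTGS2 and ANXA13 are named outside this rule, after their values were seen. No 2 replicates agreed within sampling noise. Promoters came from RefSeq, with motifs found in Python 3.11.15. The limit of 3 counts covers counting error only. The deposited columns of the authors' 6 comparisons, with group means, log2 fold changes and p-values, were not used.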

Additional observations from a re-analysis of the deposited data

How the results depend on the processing

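Over the 8 annexins and 7 tests, 516 values under another setting and 627 with 1 library left out kept their direction and side of the threshold. The number of annexins past it changed as follows. At an unadjusted p of 0.05 it was 2 between OE-MMP28 and control (14.5% of all genes) and 2 between anti-IL-8 and OE-MMP28 (29.3%). It was 4 between anti-VEGFA and control (27%), 1 between anti-VEGFA and anti-IL-8 (15%) and 2 over the 4 groups (37.9%). Between anti-IL-8 and OE-MMP28 it was 2 with DESeq2 and 1 without the filter, where calls over all genes went from 0 to 2259 and 1438. Between anti-IL-8 and control it was 1 with library totals (18.3% of all genes) and 4 when only the 2 groups were fitted (37.7%). Over the 4 groups it was 2 with DESeq2 (26%). With 1 library left out it ranged from 1 to 2 between anti-IL-8 and control (7.9% to 27% of all genes). It ranged from 0 to 2 between anti-IL-8 and OE-MMP28 (0% to 26.1%) and from 1 to 3 over the 4 groups (5.75% to 32.4%). In the other 4 comparisons it stayed at 0 (0.0187% to 16%). The cause was not tested.

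Same-numbered replicates did not deviate together: 4 of 18 correlations exceeded 0.1 (range -0.16 to 0.24), and 4 of 12 libraries correlated best with their own number. With the replicate number as a block, 1 annexin passed between anti-IL-8 and OE-MMP28, ANXA1 (-0.51, adjusted p = 0.048), with 795 calls over all genes.

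Changes near 0 turned direction. Between anti-IL-8 and OE-MMP28, ANXA2 was -0.026 with library totals, -0.010 without the filter, -0.00554 with at least 10 counts in every library and -0.00511 with protein-coding genes only, and ANXA5 was -0.022 and -0.00118 in the first 2 of these. ANXA3 was 0.067 between anti-VEGFA and OE-MMP28 with the replicate block, and ANXA11 0.013 between anti-VEGFA and control in the fit of 2 groups. With 1 library left out, between OE-MMP28 and control ANXA6 ranged from -0.072 to 0.17 and ANXA11 from -0.26 to 0.012. For anti-IL-8 against OE-MMP28 ANXA2 ranged from -0.086 to 0.18, ANXA3 from -0.53 to 0.21, ANXA4 from -0.15 to 0.0040, ANXA5 from -0.047 to 0.090 and ANXA7 from -0.091 to 0.057. Between anti-VEGFA and OE-MMP28 ANXA1 ranged from -0.14 to 0.063, ANXA2 from -0.18 to 0.079, ANXA3 from -0.27 to 0.27, ANXA6 from -0.23 to 0.022 and ANXA11 from -0.018 to 0.27. Between anti-VEGFA and control ANXA6 ranged from -0.15 to 0.026 and ANXA11 from -0.098 to 0.053, and between anti-VEGFA and anti-IL-8 ANXA3 ranged from -0.21 to 0.51. Depth limits ANXA3, at 1 to 19 counts, and the formyl peptide receptors, at 0 to 9.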

Other observations

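Of the 6 tested enzymes of arachidonate release and conversion, 1 rose and 2 fell between anti-IL-8 and control, where 20.7% of all genes passed, and the median log2 change was 0.26, beside -0.02 for all genes. The 3 are named outside the naming rule, after their values were seen. ALOX5AP, the activating protein of 5-lipoxygenase, measured 78.5 ± 6.67 CPM in control, 112 ± 7.90 in OE-MMP28, 119 ± 21.8 with anti-IL-8 and 97.4 ± 24.8 in the anti-VEGFA group (SD, n = 3 each). It rose against control by 0.60 on the log2 scale with anti-IL-8 (edgeR, adjusted p = 0.022). PLA2G4A, the cytosolic phospholipase that releases arachidonate and that ANXA1 is known to restrain, measured 12.1 ± 0.458 CPM in control, 8.68 ± 0.880 in OE-MMP28, 5.09 ± 0.567 with anti-IL-8 and 7.25 ± 0.727 in the anti-VEGFA group (SD, n = 3 each). It fell against control by 1.24 on the log2 scale with anti-IL-8 (edgeR, adjusted p = 6.2e-05), and with anti-VEGFA it fell by 0.74 (adjusted p = 0.0063). PTGS2, the inducible cyclooxygenase, measured 240 ± 48.5 CPM in control, 196 ± 32.2 in OE-MMP28, 100 ± 15.5 with anti-IL-8 and 240 ± 57.3 in the anti-VEGFA group. It fell against control by 1.26 with anti-IL-8 (adjusted p = 2.8e-04), and it was higher in the anti-VEGFA than in the anti-IL-8 group by 1.26 (adjusted p = 0.0065). Against OE-MMP28, in the anti-IL-8 group, PLA2G4A and PTGS2 had log2 changes of -0.77 and -0.96. Their adjusted p of 0.063 was the smallest of that comparison, shared by 604 genes, ANXA1 among them. It did not pass, and 0% of all genes did.

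ANXA13, an annexin of intestinal epithelium outside the 8 examined, was present at 57, 69 and 67 counts in control and 14 to 43 counts in the other 9 libraries. This gene too is named outside the naming rule, after its values were seen. ANXA13 fell against control by 1.52 with anti-IL-8 (edgeR, adjusted p = 0.0084) and by 1.19 with anti-VEGFA (adjusted p = 0.034). In each of these comparisons 1 of the 4 tested genes on its list passed, against 20.7% and 11% of all genes. The change of ANXA13 between OE-MMP28 and control was -1.03 (adjusted p = 0.13).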
